A study of Rattus norvegicus and Bos taurus with 6 samples.

Results

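The comparison described here set mesenteric perivascular adipose tissue (mesPVAT), the fat around the mesenteric vessels, against retroperitoneal (RP) fat of the rat, by single-nucleus RNA sequencing on the Parse platform. Every nucleus deposited for either tissue was taken by its label, which gave 5833 of the 19424 nuclei of the series, from 2 of its 6 libraries. The library labelled mesPVAT held 3028 nuclei and the library labelled RP fat 2805 nuclei, and they shared 0 barcodes. The study adapted a nuclei isolation protocol to white fat of rat and cow and asked how many nuclei and transcripts each depot gave. For both rat white depots the paper found no clear break in the plots of transcripts per barcode. It read this as difficulty in telling true nuclei from background RNA, and judged the genes detected too few for robust annotation. Deposited barcodes are called nuclei here, and the share of background RNA in them was not tested. Both tissues came from untreated male Dahl salt-sensitive rats (SS/HsdMcwiCrl, Charles River), kept at 22 °C and 50% humidity on a 12:12 light cycle on aspen chip, euthanized with pentobarbital and snap frozen. Both were processed in batch 2 with the Parse Evercode WT v3 kit. The age of the rats and the number of animals behind each library were not given in the sources used here. The Parse libraries of brown perivascular fat of the thoracic aorta (taPVAT) and of subscapular brown adipose tissue (BAT) from the same strain served as reference levels, as did a 10x Genomics library of mesPVAT from batch 1. By the paper, nuclei for 10x were isolated with an earlier protocol and sorted by a DNA stain before loading. It also states that taPVAT was spun at a lower speed than rat white fat. Differences from these references therefore also hold differences of nuclei isolation.

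White adipocytes store triglyceride in a large droplet coated by perilipins, release fatty acids through lipases and secrete hormones such as leptin and adiponectin. The depot also holds endothelial cells that bring lipoprotein lipase to the vessel wall, pericytes and smooth muscle cells, fibroblast-like progenitors, macrophages and lymphocytes, and, on visceral depots, a mesothelial cover that expresses mesothelin and Wt1. Perivascular fat lies on the vessel itself, so vascular cells can enter its dissection. Nuclear RNA is rich in unspliced transcripts, and long genes give many intronic reads.

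Unique molecular identifiers (UMIs, each 1 captured transcript) numbered 1656726 for mesPVAT by label and 845316 for RP fat. The median nucleus had 346 UMIs and 304 genes in the former and 213 UMIs and 197 genes in the latter. The deepest nucleus had 41374 UMIs in the former and 5611 UMIs in the latter. The study's text gives the opposite order for these depots in median genes, in median transcripts and in the most UMIs of a nucleus. Its estimated number of nuclei was also greatest for RP fat. Whether the labels of the pair were exchanged was not tested. The groups are therefore called by their deposited labels throughout, and the direction of every contrast below rests on those labels. Each library was made from 2 first-round barcode wells (A7 and A8 for mesPVAT, A9 and A10 for RP fat) and read in 2 sublibraries, which splits it into 4 technical parts. Most genes whose parts are given below were picked for large ratios, which favours parts that do not overlap. The share of all compared genes without overlap is not given here. The lowest depth of a deposited nucleus differed in sublibrary 1, at 152 UMIs for mesPVAT and 91 UMIs for RP fat. There the parts had medians of 316 and 323 UMIs against 163 and 162 UMIs. In sublibrary 2 the lowest depths were 174 and 179 UMIs, with medians of 371 and 381 UMIs against 331.5 and 312 UMIs. How far the lower limit accounts for the depth difference was not tested. The sources used here did not say whether wells held nuclei of different animals. UMIs were summed per gene over all nuclei of a library, divided by the library total and scaled to CPM (UMIs of the gene per 1e+06 UMIs). With 1 library a side no difference between tissues could be tested, and the intervals, exact Poisson for CPM and exact conditional binomial for ratios at 95%, cover counting error only. In such sums, fewer nuclei of a cell type and less RNA per nucleus cannot be told apart.

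Of 38697 genes in the annotation, 10729 had at least 50 UMIs in the pair and were compared. The log2 ratio of CPM, mesPVAT over RP fat, had a median of -0.16 over these genes. A ratio between -0.16 and 0 turns positive once centred on it, which is what centred means below. The median was 0.02 for named genes and -0.55 for unnamed transcripts, and against the named median such a ratio stays negative. A gene was called when its CPM differed at least 2-fold. By that rule 733 genes (6.83%) were higher in the library labelled mesPVAT and 523 genes (4.87%) were higher in the library labelled RP fat. Centred on the median gene, the split was 1094 to 232. Named genes made up most of the first set and unnamed transcripts much of the second. Of 8208 named genes, 703 (8.56%) were higher in mesPVAT and 264 (3.22%) in RP fat. Of 2521 unnamed transcripts, 30 (1.19%) were higher in mesPVAT and 259 (10.3%) in RP fat.

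**Figure D1:**
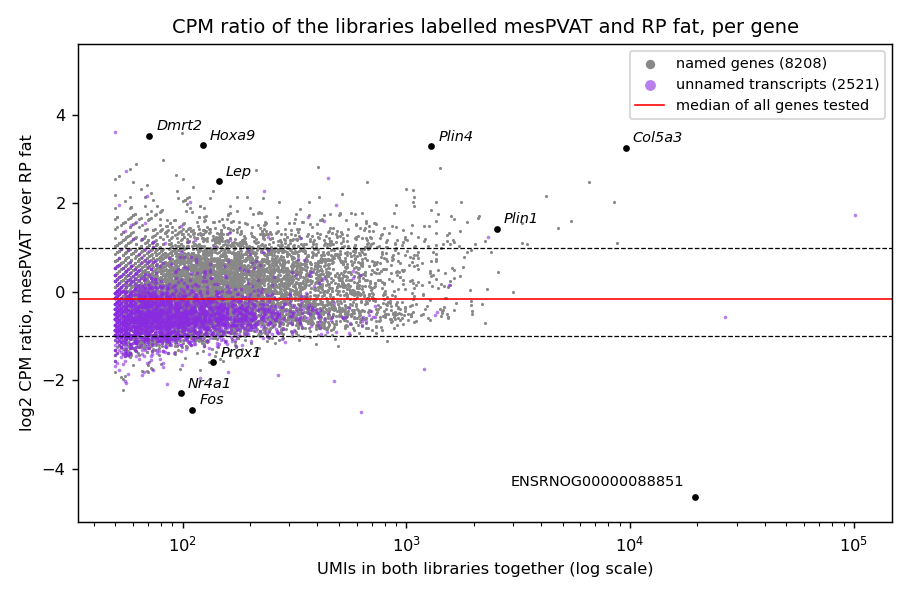
The log2 CPM ratio of each of 10729 genes (vertical axis) against its UMIs in both libraries together (horizontal axis, log scale), with named genes in grey, unnamed transcripts in violet, labelled genes in black, 2-fold limits dashed and the median of -0.16 in red. Unnamed transcripts lie mostly below 0, and ENSRNOG00000088851 lies lowest at -4.63.

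Wells of the same library differed far less than the libraries did. Well A7 and well A8, both labelled mesPVAT, had 33 genes (0.452%) and 50 genes (0.684%) at least 2-fold higher in one than in the other among 7305 with 50 UMIs. Well A9 and well A10, both labelled RP fat, had 47 genes (1.18%) and 43 genes (1.08%) among 3981. Across the labels, well A7 had 652 genes (10.7%) higher than well A9 and 335 genes (5.48%) lower among 6110. Well A8 had 537 genes (9.45%) higher than well A10 and 231 genes (4.06%) lower among 5685. Wells of 1 library share a tissue preparation as far as the labels say, so this spread does not stand for that between animals.

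Adipocyte genes were higher in the library labelled mesPVAT. The 52 listed genes found in the annotation summed to 9993 CPM (9842 to 10147) there and to 5196 CPM (5043 to 5352) in the library labelled RP fat, a log2 ratio of 0.94 (0.90 to 0.99). The 4 technical parts ranged from 9349.9 to 11385 CPM and from 4847 to 5622 CPM and did not overlap. Of 47 members with enough UMIs, 19 were at least 2-fold higher in mesPVAT and 0 in RP fat, beside 8.56% and 3.22% of named genes. The median log2 ratio of these 47 members was 0.79, against 0.02 for named genes and -0.16 for all genes. Both brown libraries had more of these transcripts, at 30319 CPM in taPVAT and 32670.1 CPM in BAT.

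The droplet coat showed the greatest ratio among the roles within the adipocyte list, with a summed log2 ratio of 1.73 (1.61 to 1.87). Plin4, a perilipin of growing droplets, had 798, 719, 653 and 810 CPM in the 4 parts of the library labelled mesPVAT and 82.2, 69.1, 99.8 and 44.4 CPM in those labelled RP fat, a log2 ratio of 3.29 (2.93 to 3.68). Every mesPVAT part was above every RP fat part. Plin1, the perilipin of mature adipocytes, stood at 1287 and 478 CPM, a log2 ratio of 1.43 (1.28 to 1.59). Triglyceride synthesis summed to a log2 ratio of 1.22 and lipolysis to 1.07. Lipe, hormone-sensitive lipase, stood at 377 and 130 CPM, a log2 ratio of 1.53 (1.24 to 1.84). Pck1, an enzyme on the route to glycerol 3-phosphate for re-esterification in fat, stood at 697 and 231 CPM, a log2 ratio of 1.60.

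Among secreted factors, Lep, which encodes leptin, had 57.2, 74.7, 87.0 and 96.9 CPM in the mesPVAT parts and 18.3, 4.32, 13.3 and 22.2 CPM in the RP fat parts. The ranges did not overlap, and the log2 ratio was 2.50 (1.65 to 3.49) on 133 and 12 UMIs. Adipoq (adiponectin) stood at 73.0 and 39.0 CPM, a log2 ratio of 0.90 (0.34 to 1.51), and Retn (resistin) at 41.04 and 13.01 CPM, a log2 ratio of 1.66. Npr3, the clearance receptor for natriuretic peptides, stood at 197 and 48.5 CPM, a log2 ratio of 2.02 (1.55 to 2.53). Fatty acid uptake summed to a log2 ratio of 0.78 (0.61 to 0.96). The sums of fatty acid synthesis and of transcription factors did not share this direction. The former summed to 441 and 470 CPM, a log2 ratio of -0.09 (-0.27 to 0.09) that turns positive once centred, and the latter to 709 and 821 CPM, a log2 ratio of -0.21 (-0.35 to -0.07). Of 4 transcription factor members with enough UMIs, 2 lay above 0 and 2 below. Of these, 1 was called in mesPVAT and 0 in RP fat, beside 8.56% and 3.22% of named genes. Pparg, the nuclear receptor that drives adipocyte identity, stood at 217 and 189 CPM, and its interval (-0.07 to 0.48) included 0.

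The adipocyte list separated the libraries further in nuclei of greater depth. In nuclei with under 200 UMIs the adipocyte list summed to 8650 CPM in the library labelled mesPVAT and 6516 CPM in that labelled RP fat. In nuclei with 1000 UMIs or more the same sums were 11236 and 3787 CPM. Endothelial sums came closer, from 3322 and 2477 CPM to 4478 and 4070 CPM. In RP fat the deepest bin rests on 88 nuclei, against 320 in mesPVAT.

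Genes of heat production differed less than the adipocyte list and in the other direction. The 18 thermogenic genes summed to 1125 CPM in the library labelled mesPVAT and 1382 CPM in that labelled RP fat. The log2 ratio was -0.30 (-0.40 to -0.19). Of 13 members 0 were called in either direction, beside 8.56% and 3.22% of named genes. The brown libraries stood far higher, at 10325 CPM in taPVAT and 11858 CPM in BAT. Ucp1, the mitochondrial uncoupler of brown fat, stood at 63.4 and 89.9 CPM, against 1782 CPM in taPVAT and 2072 CPM in BAT. Its wells crossed: log2 ratios were -1.58 for A7 over A9 and 0.78 for A8 over A10, and in A8 against A10 the thermogenic sum reversed to 0.04. Prdm16, a brown fat transcription factor, stood at 152 and 265 CPM, a log2 ratio of -0.80 (-1.07 to -0.53).

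**Figure D2:**
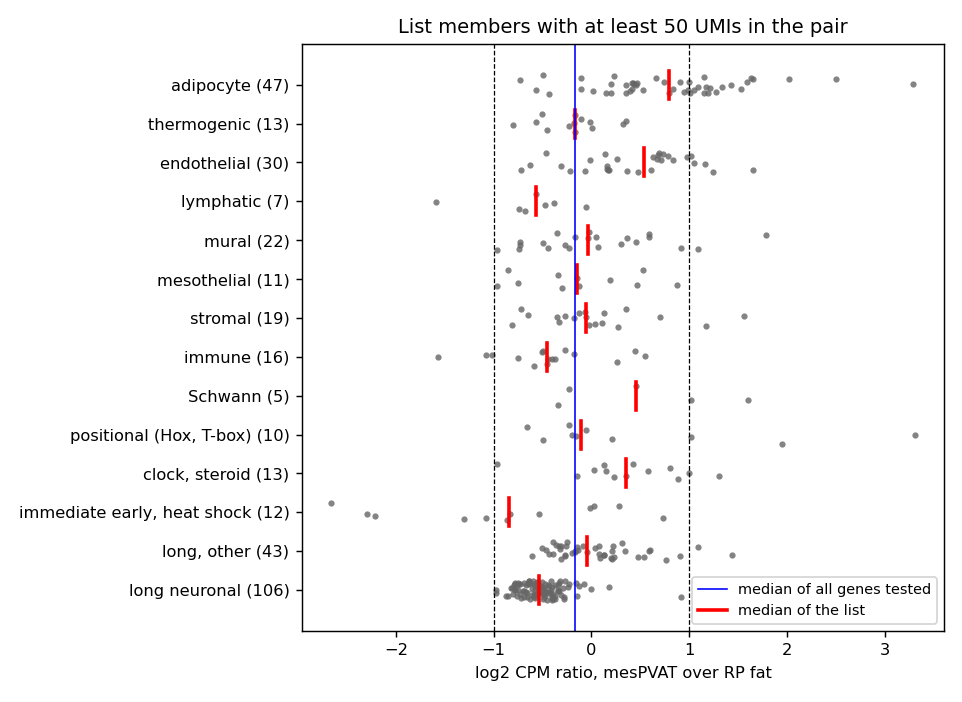
Members of each gene list with at least 50 UMIs in the pair, as points at their log2 CPM ratio, mesPVAT over RP fat; red bars mark list medians, the blue line the median of all genes and dashed lines 2-fold. Adipocyte members lie mostly right of 0, immediate early genes spread far to the left, and 104 of 106 long neuronal genes lie below 0.

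Endothelial genes were moderately higher in the library labelled mesPVAT, at 3999 and 2982 CPM, a log2 ratio of 0.42 (0.36 to 0.49). Of 30 members 5 were at least 2-fold higher in mesPVAT and 0 in RP fat, beside 8.56% and 3.22% of named genes. The difference was greatest for genes of capillaries and lipid transport, at 156 and 65.1 CPM, a log2 ratio of 1.26 (0.84 to 1.71). That sum rests on 3 genes with 259 and 55 UMIs. Btnl9, a capillary marker, had 70.8, 85.8, 85.0 and 85.3 CPM in the mesPVAT parts and 18.3, 30.2, 26.6 and 37.0 CPM in the RP fat parts, without overlap. Gpihbp1, which carries lipoprotein lipase across capillary endothelium, stood at 51.3 and 24.8 CPM, and its parts overlapped. Pecam1, a junction protein of all endothelium, stood at 218 and 127 CPM, a log2 ratio of 0.78 (0.47 to 1.11). Ptprb, a phosphatase of endothelial junctions, stood at 333 and 215 CPM, a log2 ratio of 0.63. The sum of arterial genes went the other way, at 179 and 233 CPM, a log2 ratio of -0.38 (-0.64 to -0.11). Of 5 arterial members with enough UMIs, 2 lay above 0 and 3 below, and 0 were called in either direction.

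Lymphatic endothelial genes were lower in the library labelled mesPVAT, at 625 and 877 CPM, a log2 ratio of -0.49 (-0.62 to -0.35), and 7 of 7 members lay below 0. Prox1, the transcription factor that defines lymphatic endothelium, had 21.8, 38.7, 22.3 and 48.4 CPM in the mesPVAT parts and 79.1, 82.1, 99.8 and 170 CPM in the RP fat parts. Every RP fat part was above every mesPVAT part, and the log2 ratio was -1.59 (-2.11 to -1.08). It was the single one of 7 lymphatic genes called at 2-fold, beside 3.22% of named genes in that direction. The 10x library of mesPVAT had 208 CPM of Prox1, above both. Flt4, the receptor for lymphatic growth factors, stood at 48.3 and 80.4 CPM, a log2 ratio of -0.74, and in the 10x library at 6.46 CPM.

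Mural genes summed to 5432 and 4616 CPM, a log2 ratio of 0.23 (0.18 to 0.29), but the median of 22 members was -0.03. The sum turned to a log2 ratio of -0.03 when Ebf1, the member with the most UMIs, was left out. This ratio and the median turn positive once centred. Ebf1, a transcription factor of pericytes that adipocytes also express, stood at 1692 and 796 CPM, a log2 ratio of 1.09, and at 3191 CPM in taPVAT. The pericyte genes summed to 2323 and 1247 CPM, a log2 ratio of 0.90, and Ebf1 made up most of both sums. The contractile genes of smooth muscle summed to a log2 ratio of -0.12 (-0.18 to -0.05), which turns positive once centred. Postn, a matrix protein, stood at 118 and 34.3 CPM, a log2 ratio of 1.79 (1.22 to 2.40). Pdgfrb, the pericyte receptor, stood at 132 and 69.8 CPM, a log2 ratio of 0.91. Myh11, smooth muscle myosin, stood at 556 and 431 CPM, a log2 ratio of 0.37, and Notch3 at 99.0 and 80.4 CPM with an interval (-0.12 to 0.73) that included 0. Acta2, smooth muscle actin, stood at 28.4 and 31.9 CPM.

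Mesothelial genes did not separate the libraries. The list summed to 1396 CPM (1340 to 1454) in the library labelled mesPVAT and 1339 CPM (1262 to 1419) in that labelled RP fat. The log2 ratio was 0.06 (-0.04 to 0.16), and 0 of 11 members were called, beside 8.56% and 3.22% of named genes. The technical parts overlapped, and the ratio was 0.26 in sublibrary 1 and -0.17 in sublibrary 2. Both libraries were above the brown ones, at 852 CPM in taPVAT and 449.8 CPM in BAT, and far below the 10x library of mesPVAT, at 5711 CPM. Msln (mesothelin) had 23 and 9 UMIs, or 13.9 and 10.6 CPM, against 566 CPM in the 10x library. Wt1, a transcription factor of mesothelium, stood at 47.7 and 33.1 CPM, with an interval of the log2 ratio from -0.11 to 1.203, against 280.4 CPM in the 10x library. Gpm6a, a membrane glycoprotein of neurons and mesothelium, had the largest positive ratio of the list at 290 and 157 CPM, a log2 ratio of 0.88 (0.60 to 1.17), and Clu, a secreted chaperone, the most negative at 21.7 and 42.6 CPM, a log2 ratio of -0.97 (-1.68 to -0.26).

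Stromal progenitor genes summed to 3614 and 3318 CPM, a log2 ratio of 0.12 (0.06 to 0.19), with 2 of 19 called in mesPVAT and 0 in RP fat, close to the 8.56% and 3.22% of named genes. Their median was -0.06, which turns positive once centred, with 11 of 19 below 0. The called members were Col5a2, a fibrillar collagen chain, at 401 and 177 CPM, and F3 (tissue factor) at 45.3 and 15.4 CPM. Pdgfra, the receptor that marks adipose progenitors, went the other way at 62.2 and 109 CPM, a log2 ratio of -0.81 (-1.23 to -0.39). Schwann cell genes stood at 454 and 325 CPM, a log2 ratio of 0.48 (0.28 to 0.69). Of 5 members with enough UMIs, 3 lay above 0 and 2 below. Called were 2 in mesPVAT and 0 in RP fat, beside 8.56% and 3.22% of named genes. The called members were S100b, a calcium-binding protein of glia and adipocytes, at 86.3 and 28.4 CPM, a log2 ratio of 1.60, and Mbp (myelin basic protein) at 182 and 89.9 CPM. The sum fell to a log2 ratio of 0.21 without Mbp, the member with the most UMIs. It was 0.19 in sublibrary 1 and 0.84 in sublibrary 2.

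Immune genes were lower in the library labelled mesPVAT, at 1066 and 1414 CPM, a log2 ratio of -0.41 (-0.51 to -0.30). Of 16 members 0 were called in mesPVAT and 3 in RP fat, beside 8.56% and 3.22% of named genes. Skap1, a T cell adaptor protein, had 95.3, 66.4, 123 and 90.0 CPM in the mesPVAT parts and 240.5, 143, 186 and 229 CPM in the RP fat parts, without overlap, and a log2 ratio of -1.08. Ikzf3, a lymphocyte transcription factor, stood at 31.4 and 93.5 CPM, but 1 RP fat part had 22.2 CPM, within the mesPVAT range. Adgre1 (F4/80 of macrophages) stood at 34.4 and 69.8 CPM, a log2 ratio of -1.02. The general leukocyte gene Ptprc (CD45) and the macrophage receptor Mrc1 differed in the other direction, at 129 against 94.6 CPM and 77.9 against 53.2 CPM, with log2 ratios of 0.44 (0.06 to 0.83) and 0.55 (0.05 to 1.07).

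All HOX genes of the positional list, whatever their UMIs, summed to 327 CPM (300 to 355) in the library labelled mesPVAT and 141 CPM (117 to 168) in that labelled RP fat, a log2 ratio of 1.21 (0.93 to 1.51). Only 3 of 26 reached 50 UMIs, which favours members that are high in 1 library. In the 10x library of mesPVAT the same genes summed to 397 CPM. Hoxa9, a homeobox gene of posterior body levels, had 78.9, 74.7, 56.6 and 76.1 CPM in the mesPVAT parts and 6.09, 4.32, 0 and 22.2 CPM in the RP fat parts, a log2 ratio of 3.31 (2.15 to 4.79). The ranges did not overlap. The 10x library of mesPVAT had 0.81 CPM of Hoxa9. All HOX genes of paralogue groups 9 to 13 summed to 118 and 39.0 CPM, a log2 ratio of 1.59 (1.05 to 2.17), and to 8.08 CPM in the 10x library. Hoxa9 gave 117 of the 195 UMIs of this sum in mesPVAT and 6 of the 33 UMIs in RP fat. It was the single one of 16 members that reached 50 UMIs, so the sum is not separate from Hoxa9. Groups 1 to 8 summed to 219.7 and 112 CPM, and to 389 CPM in the 10x library. Hoxb4 stood at 41.04 and 10.6 CPM, a log2 ratio of 1.95, and Hoxa3 at 71.8 and 35.5 CPM, a log2 ratio of 1.02. Dmrt2, a transcription factor of the paraxial mesoderm, had 68 and 3 UMIs, or 41.04 and 3.55 CPM, a log2 ratio of 3.53 (1.92 to 5.84), and 0 UMIs in the 10x library. Nkx2-3, a homeobox gene of gut and spleen mesenchyme chosen after its values were seen, had 1 UMI in the library labelled mesPVAT and 16 UMIs in that labelled RP fat. At 17 UMIs it fell below the minimum, and its counting interval for the log2 ratio ran from -10.4 to -2.28. The 10x library had 10.5 CPM of it. All other positional genes of the list summed to 826 and 931 CPM, a log2 ratio of -0.17 (-0.30 to -0.04). The 10x library of mesPVAT was nearer to the Parse library labelled RP fat for Hoxa9, Dmrt2 and Nkx2-3, picked after their values were seen. For groups 9 to 13, a sum that includes Hoxa9, it was nearer to RP fat, but for the HOX sum and groups 1 to 8 nearer to mesPVAT. Nuclei isolation, sorting, chemistry, batch and genome build differ between the platforms.

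Promoters of 3 genes named in these contrasts are shown from RefSeq (GRCr8), as the 250 bases before the listed start, 5′ to 3′ on the strand of the gene. Hoxa9 is shown as the HOX gene with the largest ratio (chr4:82657049-82657298, minus strand), Lep as the adipocyte hormone gene (chr4:58626288-58626537, plus strand) and Nr4a1 for the immediate early genes described next (chr7:134259888-134260137, plus strand). Capitals mark matches on either strand to TATAAA in Hoxa9, to the palindrome TTGCGCAA recognised by C/EBP proteins in Lep and to the cAMP-response half-site TGACG in Nr4a1. In Hoxa9 the match begins 157 bases before the listed start.
Hoxa9: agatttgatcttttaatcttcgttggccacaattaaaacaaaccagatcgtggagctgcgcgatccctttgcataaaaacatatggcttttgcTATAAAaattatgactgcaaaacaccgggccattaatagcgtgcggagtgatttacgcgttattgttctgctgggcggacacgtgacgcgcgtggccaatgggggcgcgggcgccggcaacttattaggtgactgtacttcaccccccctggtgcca
Lep: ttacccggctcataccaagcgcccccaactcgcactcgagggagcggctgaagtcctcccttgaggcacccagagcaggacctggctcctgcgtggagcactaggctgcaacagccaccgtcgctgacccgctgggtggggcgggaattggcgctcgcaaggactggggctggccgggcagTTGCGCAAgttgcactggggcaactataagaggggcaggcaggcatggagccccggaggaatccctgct
Nr4a1: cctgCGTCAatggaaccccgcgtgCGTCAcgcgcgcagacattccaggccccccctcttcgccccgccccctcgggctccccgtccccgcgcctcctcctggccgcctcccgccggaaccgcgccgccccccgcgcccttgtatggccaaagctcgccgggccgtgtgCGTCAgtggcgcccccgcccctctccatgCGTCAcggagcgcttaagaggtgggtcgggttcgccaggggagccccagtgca
Of 27457 genes with a promoter in the table, 14.1% held TATAAA, 0.168% held TTGCGCAA and 5480 genes held TGACG in this window. The half-site TGACG occurred 4 times in Nr4a1, a number reached by 0.2% of all genes. It was present in 8 of the 13 immediate early and heat shock genes with a promoter in the table, in 27.4% of 6665 named genes compared, in 32.1% of 592 called higher in mesPVAT and in 40 of 200 called higher in RP fat. A match describes the letters only.

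Immediate early and heat shock genes, which are transcribed within minutes of a stimulus or stress, were lower in the library labelled mesPVAT. The list summed to 461 CPM (429 to 495) there and 775 CPM (717 to 837) in the library labelled RP fat, a log2 ratio of -0.75 (-0.90 to -0.60). Of 12 members 0 were called in mesPVAT and 5 in RP fat, beside 8.56% and 3.22% of named genes, with a median log2 ratio of -0.85. In sublibrary 2, where 4 members reached 50 UMIs, and in nuclei with 200 to 500 UMIs, where 3 did, the median of those members was 0.16 and 0.33, and that of the same 12 members -0.45 and -0.64. Fos had 13.6, 27.7, 14.2 and 9.23 CPM in the mesPVAT parts and 109.6, 82.1, 113 and 88.8 CPM in the RP fat parts, a log2 ratio of -2.66 (-3.36 to -2.01). Nr4a1, an orphan nuclear receptor, had 19.1, 19.4, 10.1 and 20.8 CPM against 73.1, 82.1, 86.5 and 104 CPM, a log2 ratio of -2.29 (-2.98 to -1.64). For Fos and Nr4a1 every RP fat part was at least 2-fold above every mesPVAT part. In taPVAT and BAT, Fos stood at 23.1 and 17.3 CPM, near the mesPVAT level, but Nr4a1 at 206 and 217 CPM, above both white libraries. Hspa1b, an inducible heat shock protein, stood at 9.66 and 44.95 CPM, a log2 ratio of -2.22, and Egr1 at 25.4 and 62.7 CPM, a log2 ratio of -1.31. Members above 0 were Klf4 at 0.74 (-0.12 to 1.68), Klf6 at 0.29 (-0.20 to 0.79) and Hspa8 at 0.03, each with an interval that included 0, and Jun stood at -0.01. The 10x library of mesPVAT had 10388 CPM for the whole list.

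Genes of the clock and of steroid response were higher in the library labelled mesPVAT, at 1117 and 838 CPM, a log2 ratio of 0.42 (0.29 to 0.54), with 11 of 13 members above 0. Per3, a period gene of the clock, stood at 76.1 and 30.8 CPM, a log2 ratio of 1.31 (0.69 to 1.97), Cry2 at 61.6 and 30.8 CPM and Nr3c1, the glucocorticoid receptor, at 251 and 136 CPM. Per1, which is also induced by stimuli, stood at 15.7 and 30.8 CPM, a log2 ratio of -0.97 (-1.81 to -0.13). The time of day of tissue collection was not given in the sources used here.

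**Figure D3:**
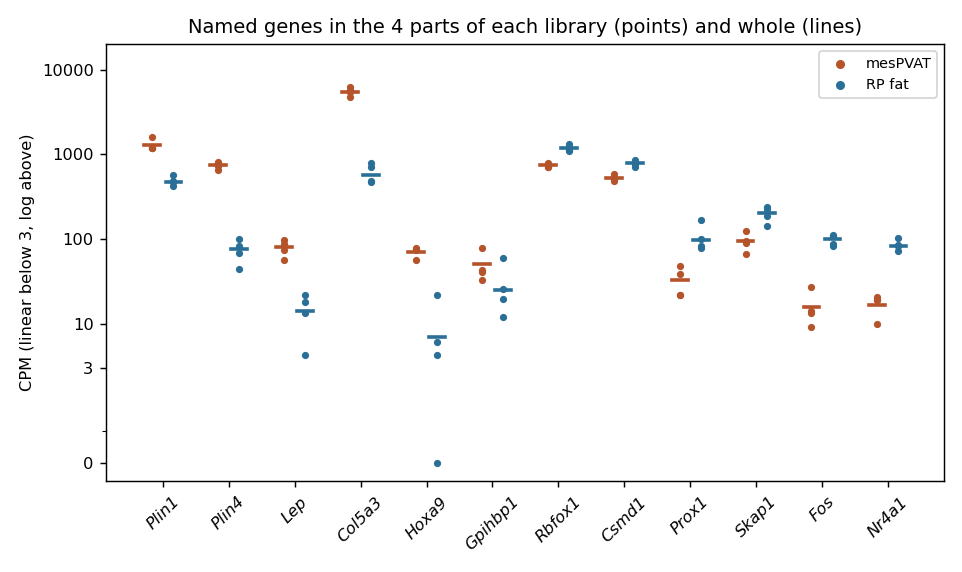
CPM of 12 named genes in the 4 technical parts of each library (points) and in the whole library (lines), mesPVAT in brown and RP fat in blue, on an axis that is linear below 3 CPM and logarithmic above. Plin4, Lep, Col5a3, Fos, Nr4a1, Prox1 and Skap1, which were picked for large ratios, show no overlap between the libraries, whereas Gpihbp1 does. The share of all compared genes without overlap is not given here.

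Long genes of neuronal adhesion, channels and synapse were lower in the library labelled mesPVAT and abundant in both white libraries. The list summed to 29647 CPM (29385 to 29910.4) in the library labelled mesPVAT and 41476 CPM (41043 to 41912) in that labelled RP fat, a log2 ratio of -0.48 (-0.50 to -0.46). The parts ranged from 28545 to 31059 CPM and from 40852 to 43885 CPM and did not overlap. Of 106 members 104 lay below 0, with a median log2 ratio of -0.54 against 0.02 for named genes. Yet 0 reached 2-fold in either direction, beside 8.56% and 3.22% of named genes. Rbfox1, a neuronal splicing factor gene, had 708, 769, 793 and 701 CPM in the mesPVAT parts and 1212, 1309, 1132 and 1088 CPM in the RP fat parts, a log2 ratio of -0.69 (-0.81 to -0.57). Csmd1, a complement regulator of synapses, stood at 526 and 787 CPM, a log2 ratio of -0.58. The largest differences were those of Rbfox3 and the glutamate receptor gene Grin2a, both with a log2 ratio of -0.98. Nav3, a microtubule-binding protein, was an exception at 624 and 331 CPM, a log2 ratio of 0.91 (0.72 to 1.11).

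The brown libraries had far less of the same genes, at 8588 CPM in taPVAT and 7908 CPM in BAT. Per kilobase of gene, the list stood at 0.29 and 0.41 CPM in the white libraries and at 0.08 CPM in either brown one. The 10x library of mesPVAT had 8610 CPM, close to the brown level. Other long genes differed from this list. Of 43 other long genes without a neuronal role 2 were called in mesPVAT and 0 in RP fat, a lower share than the 8.56% and 3.22% of named genes, with a summed log2 ratio of 0.22 (0.19 to 0.25) and a median of -0.04 that turns positive once centred. Utrn, which encodes the membrane linker utrophin, led them at 2422 and 894 CPM, a log2 ratio of 1.44 (1.32 to 1.55). Over all 8067 named genes with a length (98.3%), the median log2 ratio went from 0.38 in genes under 10 kb to -0.33 in genes of 200 to 500 kb and -0.43 in genes over 500 kb.

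Genes restricted to tissues outside the depot were likewise lower in the library labelled mesPVAT. Those of pancreatic acini, intestine, kidney and adrenal together summed to 579 and 933 CPM, a log2 ratio of -0.69 (-0.83 to -0.55), with 11 of 11 tested members below 0 and 1 of them called, beside 3.22% of named genes in that direction. Per kilobase they stood at 0.41 and 0.67 CPM, against 0.09 CPM in taPVAT and 0.08 CPM in BAT. Their log2 ratios were -0.12 for acini (-0.51 to 0.28, positive once centred), -0.80 for intestine, -0.76 for kidney and -0.79 for adrenal. Slc12a1, the salt transporter of the kidney tubule, stood at 24.7 and 48.5 CPM, and Cyp11a1, which starts steroid synthesis in the adrenal, at 23.5 and 50.9 CPM. Skeletal muscle genes gave a log2 ratio of -0.20 (-0.33 to -0.07).

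Grouping named genes by their level in the brown libraries, which took no part in the comparison, placed these lists on 1 scale. Genes at 0.03 to 0.1 CPM per kilobase in brown fat (3984 genes) stood at 0.31 CPM per kilobase in the library labelled mesPVAT and 0.48 in that labelled RP fat. Genes at 10 CPM per kilobase and over in brown fat (381 genes) stood at 10.9 and 5.64 CPM per kilobase. The median log2 ratio went from -0.61 in the former group through -0.05 at 0.3 to 1 CPM per kilobase to 0.78 in the latter. The range over bins was narrower in the library labelled RP fat than in that labelled mesPVAT. The brown libraries defined the bins, so their own wider range is fixed by that choice.

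**Figure D4:**
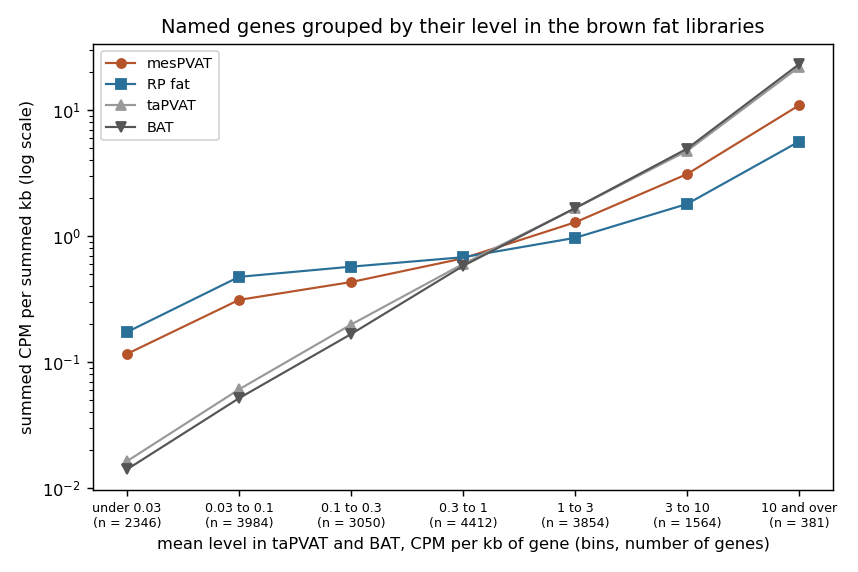
Summed CPM per summed kilobase of named genes (vertical axis, log scale) in 4 Parse libraries, for genes binned by mean CPM per kilobase in taPVAT and BAT (horizontal axis, with the number of genes). At 0.03 to 0.1 CPM per kilobase in brown fat RP fat (0.48) lies above mesPVAT (0.31), and at 10 and over mesPVAT (10.9) lies above RP fat (5.64).

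Most list medians came near 0 on this scale. When each log2 ratio was set against the median of named genes of like level in brown fat, a choice made after the data were seen, the adipocyte median went from 0.79 to 0.10, the endothelial from 0.54 to 0.05, the lymphatic from -0.57 to 0.03 and the long neuronal from -0.54 to 0.03. The mesothelial, stromal, mural, immune and long non-neuronal medians lay between -0.10 and 0.01. Medians further from 0, among lists with 5 or more members, were those of the immediate early and heat shock genes at -1.55, the thermogenic genes at -0.80, the clock and steroid genes at 0.40, the ribosomal protein genes at -0.30 and the Schwann cell genes at 0.27. Positional genes stood at -0.13, kidney genes at -0.12 and skeletal muscle genes at 0.05. Brown fat is itself rich in adipocytes, so the adipocyte share and the narrower range of a library cannot be told apart by this measure. The thermogenic list was chosen for genes of brown fat, so its negative value is in part fixed by that choice. Its sum stood at 6.07 and 6.97 CPM per kilobase in taPVAT and BAT. Named genes at 3 to 10 CPM per kilobase there had a median log2 ratio of 0.64.

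Unnamed transcripts, which carry an Ensembl identifier and no symbol, took 22.5% of the mesPVAT total and 28.1% of the RP fat total. They made up 4.09% of the genes called in mesPVAT, 49.5% of those called in RP fat and 23.5% of all genes compared. Their median log2 ratio was -0.55, against 0.02 for named genes, and 2260 of 2521 lay below 0. Without the 2 transcripts that led in either library they summed to 170407 and 243750.0 CPM, a log2 ratio of -0.52.

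ENSRNOG00000087169 was the most abundant unnamed transcript in the library labelled mesPVAT, with 53284 CPM (5.33% of UMIs) against 15883 CPM (1.59%) in that labelled RP fat. It had 118760.0 CPM in taPVAT and 122462 CPM in BAT, and the wells of 1 library were closer to each other than to those of the other, at 58246 and 49386 CPM in mesPVAT and 14423 and 18748 CPM in RP fat. ENSRNOG00000088851 was the most abundant one in the library labelled RP fat, with 21372 CPM (2.14% of UMIs) against 864 CPM in mesPVAT, a log2 ratio of -4.63 (-4.71 to -4.55). Its excess was far greater in well A9 of RP fat, at 30866 CPM, than in well A10, at 2737 CPM. The mesPVAT wells had 781 and 929 CPM and the 6 brown wells 595 to 1328 CPM. It was present in 84.2% of nuclei of well A9, 40% of well A10 and 24.1% and 25.4% of the mesPVAT wells. For A8 over A10, which leaves out wells A7 and A9, the log2 ratio was -1.56 (-1.70 to -1.42).

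Other unnamed transcripts were also higher in well A9 than in well A10. ENSRNOG00000066732 had 529 CPM in well A9, 80.6 CPM in well A10 and 52.1 and 125 CPM in the mesPVAT wells. Its log2 ratio of -2.02 over the whole libraries became 0.63 (-0.02 to 1.35) for A8 over A10. ENSRNOG00000088887 had 1232 CPM in well A9 and 238 CPM in well A10, and its log2 ratio went from -1.75 to 0.36 (-0.03 to 0.76). ENSRNOG00000073271 and ENSRNOG00000077005, at 94.6 and 60.7 CPM in well A9, had 17.5 and 10.5 CPM in well A10. ENSRNOG00000085139 had 745 and 224 CPM in the RP fat wells and 87.8 and 86.2 CPM in the mesPVAT wells, and its log2 ratio for A8 over A10 was -1.38 (-1.87 to -0.88). ENSRNOG00000089373 had 16198 and 8296 CPM in the RP fat wells and 7628 and 10399 CPM in the mesPVAT wells, which crossed. Fos, Nr4a1 and Prox1 were high in both RP fat wells: Fos had 98.2 and 102 CPM in wells A9 and A10, Nr4a1 76.8 and 94.6 CPM, and Prox1 80.4 and 133 CPM. The part of well A9 in the RP fat counts of other genes was not tested beyond the values for A8 against A10.

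**Figure D5:**
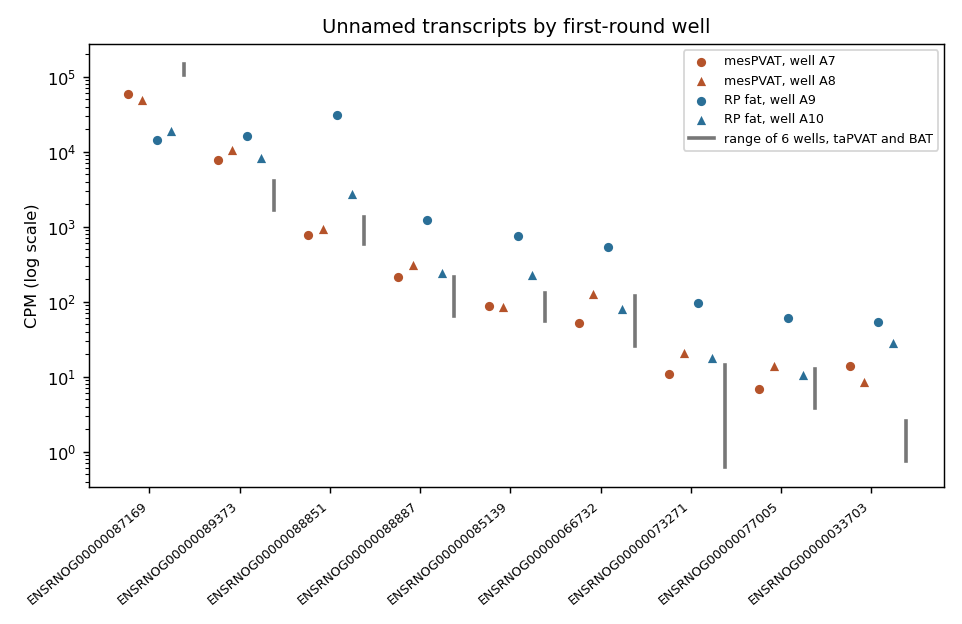
CPM (log scale) of 9 unnamed transcripts in each first-round well, with the range of the 6 wells of taPVAT and BAT in grey. Well A9 of RP fat stands above well A10 for 8 of the 9, by the widest margin for ENSRNOG00000088851 (30866 and 2737 CPM), while ENSRNOG00000087169 is lower in A9 (14423 and 18748 CPM).

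Further genes at the ends of the ranking belonged to no list. Col5a3, a minor fibrillar collagen chain found in fat, had 5449, 6163, 4702 and 5780.1 CPM in the mesPVAT parts and 487, 475, 719 and 792 CPM in the RP fat parts, a log2 ratio of 3.25 (3.12 to 3.39). It rested on 9060 UMIs in the library labelled mesPVAT, against 256 CPM in taPVAT, 271 CPM in BAT and 1118 CPM in the 10x library. The ranges did not overlap. Fmr1, an RNA-binding protein gene, stood at 796 and 115 CPM, a log2 ratio of 2.79 (2.50 to 3.11), and Rbp7, a retinoid-binding protein, at 226 and 31.9 CPM, a log2 ratio of 2.83. Pex11a, which divides peroxisomes, had 77 and 5 UMIs, and Sult1a1, a sulfotransferase, 58 and 4 UMIs. LOC103692127 (95 and 4 UMIs) and ENSRNOG00000072030 (48 and 2 UMIs) had the largest ratios of all, at 3.60 and 3.61. At the RP fat end, Smok had 18 and 36 UMIs and ENSRNOG00000033703 18 and 38 UMIs, at log2 ratios of -1.97 and -2.05.

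Several genes of general function, chosen after their values were seen, were also higher in the library labelled mesPVAT. Srrm2, a scaffold of nuclear speckles, stood at 2294 and 508 CPM, a log2 ratio of 2.18 (2.03 to 2.32), and at 2194 CPM in taPVAT. Syne2, a linker of the nuclear envelope, stood at 3629 and 653 CPM, a log2 ratio of 2.47, and at 1406 CPM in taPVAT. Nktr and Tcf25 stood at 584 and 118 CPM and at 588 and 132 CPM. All 4 were higher in taPVAT than in the library labelled RP fat. Mitochondrially encoded genes summed to 504 and 839 CPM, a log2 ratio of -0.73 (-0.88 to -0.59), and ribosomal protein genes to 1383 and 1165 CPM, a log2 ratio of 0.25 (0.14 to 0.36) that was -0.01 for well A8 over A10.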

How the data were processed

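The authors deposited UMI counts per gene and nucleus, without normalization, made with the Parse split-pipe pipeline on GRCr8 for the Parse libraries and with Cell Ranger on Rnor_6.0 for the 10x Genomics library. The labels also name FastQC and Scanpy. The counting strand was not given in the sources used here, so overlapping and antisense genes, and genes with near-identical copies, are uncertain. From these counts, UMIs were summed over nuclei per library, well or part and divided by the total to give CPM, in Python 3.11.15 with numpy 2.4.6, scipy 1.17.1 and pandas 2.3.3. No nucleus was left out and no doublet caller was run. Genes with at least 50 UMIs in the pair were compared, a side with 0 UMIs was set to 3 counts for the ratio, and a 2-fold difference was the limit. Just inside and outside the minimum, 746 genes had 50 to 54 UMIs and 889 had 45 to 49. No test was made, since each side is 1 library of 845316 UMIs or more. The functions were tested on simulated data. Gene lengths came from RefSeq GRCr8 by symbol or synonym.

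Libraries were grouped by the deposited labels. The gene lists (adipocyte, thermogenic, endothelial, lymphatic, mural, mesothelial, stromal, immune, Schwann, long neuronal, other long, positional, immediate early and heat shock, clock and steroid, and genes of pancreas, intestine, kidney, adrenal and skeletal muscle) and the libraries themselves were chosen with earlier results of these data known. Named genes were the 4 list members with the largest ratios of each list, a set of defining markers, the 10 genes at each end of the ranking and the 5 most abundant unnamed transcripts of each library. Of these, 1 gene is not reported here. Splits by well, the reference to brown fat level, and other members named by role were chosen after the data were seen. Alternatives were other minimums and folds, the study's nucleus filters, depth windows, sublibraries, wells, equal weight per nucleus, centring and other totals.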

Additional observations from a re-analysis of the deposited data

How the results depend on the processing

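No paired analysis was possible because each group is 1 library, and no library could be left out. Counts of genes at least 2-fold apart depended on the minimum and the fold. The 733 genes higher in mesPVAT and 523 higher in RP fat became 298 and 26 at a minimum of 200 UMIs, 2169 and 7087 with no minimum, 159 and 42 at a fold of 3 and 156 and 34 where the counting interval lay wholly past 2-fold. At a minimum of 20 UMIs there were 1811 genes at least 2-fold higher in RP fat. In nuclei with 200 to 500 UMIs the counts were 402 and 129, and the log2 ratios were 0.67 for adipocyte, 0.0576 for thermogenic (reversed), 0.53 for endothelial, -0.45 for long neuronal and -0.28 for unnamed sums.

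In sublibrary 1, 224 genes were higher in RP fat, and log2 ratios were 0.80 for adipocyte, 0.16 for mural, 0.26 for mesothelial, -0.45 for long neuronal and -0.31 for unnamed sums. In sublibrary 2 these were 311 genes, 1.12, 0.32, -0.17, -0.52 and -0.33, with 0.34 for endothelial. Centred on the median gene, 232 genes were higher in RP fat, with 1.11 for adipocyte, 0.59 for endothelial, 0.40 for mural, 0.22 for mesothelial, -0.32 for long neuronal and -0.16 for unnamed. With the study's nucleus filters, adipocyte was 1.01, long neuronal -0.57 and unnamed -0.35. From 300 UMIs up, adipocyte was 1.13, endothelial 0.34 and mesothelial -0.0462. Without the 10 nuclei with the most UMIs, adipocyte was 0.995, long neuronal -0.57 and unnamed -0.35. With equal weight per nucleus, adipocyte was 0.65, endothelial 0.50, mesothelial 0.18 and unnamed -0.30. With unnamed and mitochondrial genes left out of the total, adipocyte was 0.83, endothelial 0.31, mural 0.125, mesothelial -0.0497 and long neuronal -0.59. Without the member with the most UMIs, adipocyte was 0.88, mural -0.0308 (reversed) and unnamed -0.63. With provisional names counted as unnamed, their ratio was -0.30.

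Of the alternatives added after the data were seen, well A7 against A9 gave 335 genes higher in RP fat, adipocyte 0.84 and unnamed -0.35. Well A8 against A10 gave 231 genes, adipocyte 1.06, endothelial 0.35, mesothelial -0.0831, long neuronal -0.51 and unnamed -0.24, and reversed the thermogenic sum (0.0438), ribosomal protein genes (-0.0063), ENSRNOG00000066732 (0.63) and ENSRNOG00000088887 (0.36). With ENSRNOG00000088851 left out of the total, long neuronal was -0.51 and unnamed -0.35. Set against genes of like level in brown fat, the lymphatic median turned to 0.0337 and the long neuronal median to 0.0274. The immediate early and heat shock median was 0.33 in nuclei with 200 to 500 UMIs and 0.16 in sublibrary 2, over the 3 and 4 members left, and -0.64 and -0.45 over the same 12 members as in the whole pair. The thermogenic median was 0.22 for well A8 over A10. Medians of the mural, mesothelial, stromal, other long, positional, skeletal muscle and ribosomal protein lists also changed sign in 2 or more settings. The causes of these changes were not tested, apart from fewer genes or nuclei entering the count.

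Of 48 named genes at least 2-fold apart, 19 came under 2-fold in at least 1 of 13 settings, and 2 changed sign. Plin1 was among them, at 0.72 in nuclei with 200 to 500 UMIs. At 50 UMIs the counting interval of a single gene is wide, so that 156 of the 733 genes and 34 of the 523 lay wholly past 2-fold. With 1 library a side, tissue, animal, dissection and library preparation cannot be told apart.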
